A study of Mus musculus with 8 samples.

Results

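The genes described here are 46 ribosome biogenesis genes, chosen by name as nucleolar factors of ribosomal RNA (rRNA) processing and subunits or cofactors of RNA polymerase I, out of 53700 genes in the count table. All 46 passed the filter on low counts and were among the 13933 genes tested. The RNA-Seq libraries were from LLC cells, the mouse Lewis lung carcinoma line, that were WT or lacked FIH (FIH-KO), an oxygen-dependent asparagine hydroxylase that restrains HIF transcription factors. The FIH-KO cells were made with CRISPR/Cas9 and a guide against Hif1an, the gene for FIH, and grown out after dilution to single cells, so differences between clones cannot be told apart from an effect of FIH loss. Each genotype was kept for 16 hours in normoxia (21% O2) or hypoxia (1% O2), giving 4 groups (WT normoxia, FIH-KO normoxia, WT hypoxia, FIH-KO hypoxia) with 2 libraries each. No other treatment was labelled, and the labels do not say whether the libraries of a group came from separate cultures, so p values measure the spread between these libraries only. Library totals ran from 14519731 to 18177016 counts, and a single member had between 376 and 63757 counts in a library.

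Ribosomes are assembled in the nucleolus. RNA polymerase I transcribes the rRNA precursor, small nucleolar RNA-protein particles (snoRNPs) of the box C/D and box H/ACA classes modify it, and separate sets of factors cut, fold and package it into the small and the large subunit. Many of these genes are known targets of the transcription factor Myc, and their output is tied to cell growth in tumor cells.

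Hif1an was read first, as a check of the labels. Its level in TMM-scaled CPM (counts divided by library size and a normalization factor) was 84.6 and 82.3 in WT normoxia, 34.8 and 37.7 in FIH-KO normoxia, 90.2 and 84.0 in WT hypoxia, and 45.5 and 51.0 in FIH-KO hypoxia. All FIH-KO libraries lay below all WT libraries, and transcript remained in each of them. The log2 fold change of FIH-KO over WT was -1.20 (SE 0.12, adjusted p = 3.088e-05) in normoxia and -0.85 (SE 0.12, adjusted p = 0.00031) in hypoxia. Hif1an lies on chromosome 19, where the median over all tested genes was -0.38 in normoxia and -0.45 in hypoxia. The keratin genes Krt8 and Krt18 had mean levels of 150 and 187 CPM in WT normoxia and the mesenchymal gene Vim 3678 CPM, whereas the epithelial marker Epcam had 0 counts in every library and Cdh1 at most 0.06 CPM as a group mean. Markers of other cell types were low but not all absent. The 5 leukocyte markers summed to between 2.83 and 9.24 CPM in a library, with Cd3e at 0 and Ptprc at most 0.16 CPM in a group mean, and of the 2 that passed the filter (Cd68 and Csf1r) 0 were called between genotypes. The 4 endothelial markers summed to between 0.239 and 2.41 CPM, with Pecam1 at most 0.41 CPM in a group mean, and Cdh5, at 1.59 CPM in WT hypoxia, was called lower in FIH-KO hypoxia (-2.62, adjusted p = 0.0051). The 5 fibroblast markers summed to 28.9 and 29.0 CPM in WT normoxia, 21.3 and 24.5 in FIH-KO normoxia, 15.5 and 24.4 in WT hypoxia, and 9.12 and 17.6 in FIH-KO hypoxia. Pdgfra, at a mean of 26.3 CPM in WT normoxia, was called lower in FIH-KO hypoxia (-0.87, adjusted p = 0.032) and not in normoxia (-0.61, adjusted p = 0.10). The other 2 tested, Col1a1 (0.99 and 1.31) and Dcn (1.19 and 1.22), had values above 0 in normoxia and hypoxia and were not called, while Col1a2 and Lum did not exceed 0.52 CPM in a group mean. Krt8 was higher in FIH-KO cells, by 1.02 in normoxia and 1.00 in hypoxia on the log2 scale, and Vim by 0.52 and 0.58, while Krt18 (-0.05 and 0.12) and Krt19 (-0.05 and 0.49) were not called in either condition. The part of these genes in the results was not tested.

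The 46 genes took a smaller part of the sequenced RNA in FIH-KO cells. Their summed reads were 1.47% and 1.35% of the library in WT normoxia, 0.776% and 0.991% in FIH-KO normoxia, 1.38% and 1.27% in WT hypoxia, and 0.975% and 0.868% in FIH-KO hypoxia. The highest FIH-KO library therefore lay below the lowest WT library, in both oxygen conditions. Group means were 1.41% ± 0.0845 (SD, n = 2) in WT normoxia, 0.883% ± 0.152 (SD, n = 2) in FIH-KO normoxia, 1.32% ± 0.0757 (SD, n = 2) in WT hypoxia and 0.921% ± 0.0762 (SD, n = 2) in FIH-KO hypoxia. Npm1 and Ncl weighed heavily in these sums. In WT normoxia replicate 1 they held 43313 and 63757 of the 228633 summed reads. In FIH-KO normoxia replicate 1 they held 21526 and 31711 of 128669. The summed shares are relative to each library, so a change in total RNA per cell, or in the mix of cells, cannot be told apart from a change in these transcripts.

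**Figure D1:**
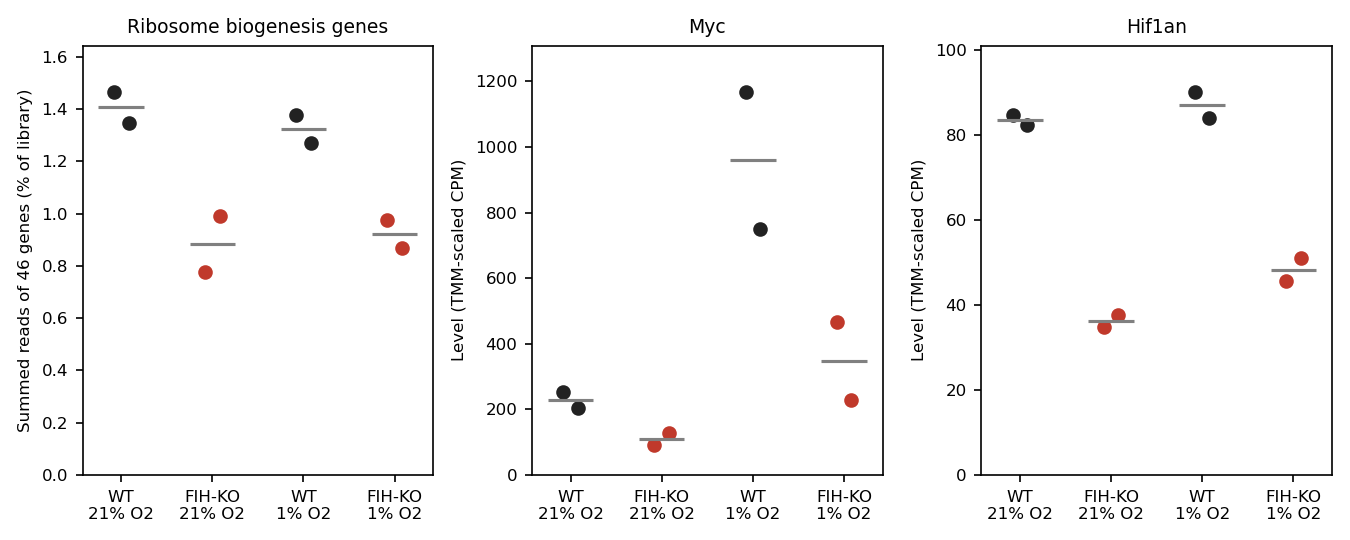
Summed reads of the 46 genes as percent of the library (left), and levels of Myc (middle) and Hif1an (right) in TMM-scaled CPM, by group. Points are the 2 libraries of a group and horizontal lines their mean. The summed share lies between 0.776% and 0.991% in the 4 FIH-KO libraries and between 1.27% and 1.47% in the 4 WT libraries.

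In normoxia, 32 of the 46 genes were lower in FIH-KO than in WT cells at an adjusted p under 0.05 and 0 were higher, while 13% of all tested genes were called lower and 15.2% higher. The median log2 fold change of the 46 genes was -0.61, that is 65.7% of the WT level, against -0.0025 over all tested genes. In hypoxia 28 were lower and 0 higher, against 13.9% and 14.1% of all tested genes, and the median was -0.52 (69.8% of WT) against -0.032. Of the 46, 27 were called lower in both conditions, 5 in normoxia alone, 1 (Rrp9) in hypoxia alone and 13 in neither. Lower in both conditions was the call for 8.68% of all tested genes. All 4 FIH-KO libraries lay below all 4 WT libraries for 27 of the 46 genes, and above them for 0, against 12.6% and 13.3% of all tested genes. The counts rested partly on single libraries, and 18 of the 32 and 7 of the 28 genes stayed called with each library left out in turn. In normoxia the counts were 18 and 21 without WT replicate 1 or 2 and 19 without FIH-KO replicate 1, and in hypoxia 8 and 18 without WT replicate 1 or 2 and 14 without FIH-KO replicate 2. Calls over all tested genes also fell in each of these fits. In hypoxia, without WT replicate 1 or FIH-KO replicate 2, they fell by a smaller share than calls of the 46 genes. In the other fits they fell by a larger share. The 2 FIH-KO normoxia libraries differed from each other more than those of any other group, with a median log2 ratio of replicate 1 to replicate 2 of -0.42 over the 46 genes. That ratio was 0.076 in WT normoxia, 0.17 in WT hypoxia and 0.19 in FIH-KO hypoxia.

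**Figure D2:**
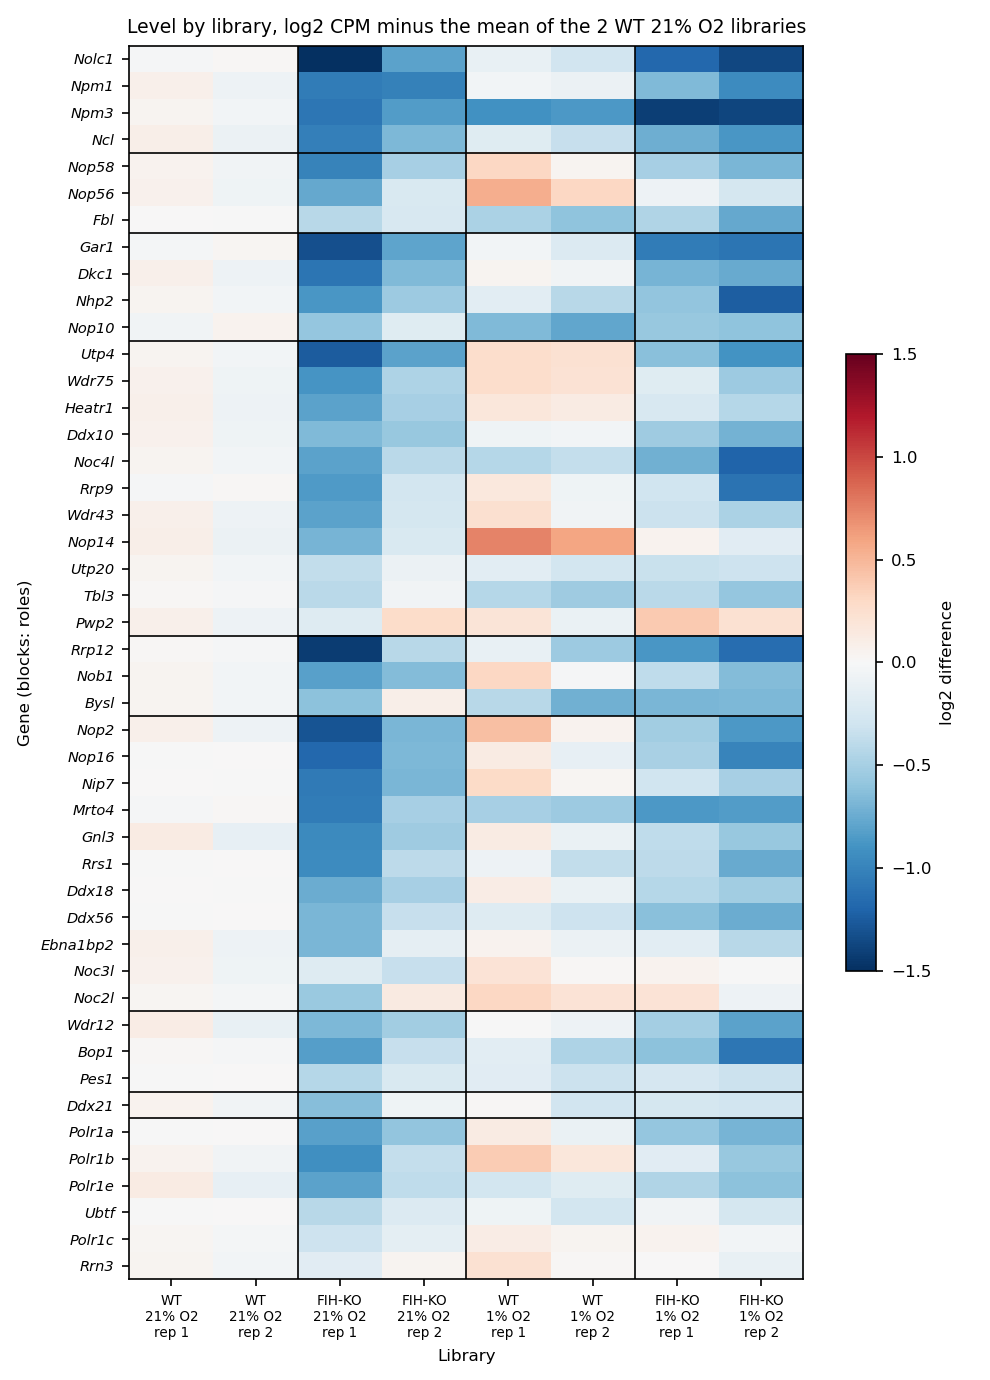
Level of each gene (rows, in blocks by role) in each of the 8 libraries (columns), as log2 CPM minus the mean of the 2 WT libraries at 21% O2. Blue marks lower and red higher levels, on a scale from -1.5 to 1.5. The FIH-KO columns are mostly blue, and FIH-KO normoxia replicate 1 is bluer than replicate 2.

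All 4 nucleolar chaperones and scaffolds (Npm1, Npm3, Ncl and Nolc1) were called lower in FIH-KO cells in both oxygen conditions. Their median log2 fold change was -0.99 in normoxia and -0.64 in hypoxia. Npm1, nucleophosmin, a chaperone of the granular nucleolus, had 2783 and 2506 CPM in WT normoxia, 1282 and 1310 in FIH-KO normoxia, 2565 and 2487 in WT hypoxia, and 1664 and 1372 in FIH-KO hypoxia. No FIH-KO library reached the lowest WT library. Its log2 fold change was -1.03 (SE 0.13, adjusted p = 0.00021) in normoxia and -0.73 (SE 0.13, adjusted p = 0.0017) in hypoxia. Nolc1, a nucleolar phosphoprotein that binds snoRNPs, had 395 and 406 CPM in WT normoxia, 130 and 229 in FIH-KO normoxia, 370 and 329 in WT hypoxia, and 177 and 155 in FIH-KO hypoxia. The FIH-KO libraries were again all below the WT libraries, and those of FIH-KO normoxia differed widely from each other. Nolc1 had the largest decrease among the 46 genes in each condition, -1.16 (SE 0.20, adjusted p = 0.0013) and -1.07 (SE 0.20, adjusted p = 0.0021). Ncl, nucleolin, which binds nascent rRNA, had 4097 and 3624 CPM in WT normoxia against 1888 and 2423 in FIH-KO normoxia, and 3390 and 3034 in WT hypoxia against 2322 and 2103 in FIH-KO hypoxia. Genotypes did not overlap. Ncl changed by -0.84 (adjusted p = 0.0016) in normoxia and by -0.54 (adjusted p = 0.018) in hypoxia. Npm3, a histone chaperone related to Npm1, changed by -0.96 (adjusted p = 0.00014) and -0.51 (adjusted p = 0.0077). In hypoxia Ncl was -0.42 without WT replicate 1 and Npm3 -0.48 without WT replicate 2, and neither was then called. Nolc1 and Npm3 lie on chromosome 19, where, as given for Hif1an, the median over all tested genes was itself below 0 (-0.38 and -0.45).

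Levels of the 46 genes were compared with each other per length, as CPM per kilobase of annotated exon (RPKM). Npm1 was the highest in WT normoxia and Ncl the next under both lengths tried, at 467 and 376 RPKM over the union of all annotated exons and at 1589 and 466 RPKM over the canonical transcript. The lowest gene depended on the length used. It was Polr1e at 5.24 RPKM with the exon union and Wdr12 at 11.2 RPKM with the canonical transcript. The median over the 46 genes was 30.7 RPKM in WT normoxia and 18.2 in FIH-KO normoxia with the exon union, and 51.1 and 31.7 with the canonical transcript. Fold changes within a gene do not use the length.

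Of the 3 core proteins of box C/D snoRNPs, which guide 2′-O-methylation of rRNA, 2 were lower in each condition. All 3 values were below 0, and differences between the genes were not tested. Nop58 had 359.5 and 336 CPM in WT normoxia, 174 and 246 in FIH-KO normoxia, 431 and 358 in WT hypoxia, and 246 and 217 in FIH-KO hypoxia. Genotypes did not overlap, and the log2 fold change was -0.73 (SE 0.16, adjusted p = 0.0051) in normoxia and -0.77 (SE 0.16, adjusted p = 0.0037) in hypoxia. Nop56, its partner, was lower by -0.47 (adjusted p = 0.048) and -0.60 (adjusted p = 0.017) on the log2 scale. In normoxia its value was -0.25 without FIH-KO replicate 1 and -0.80 without replicate 2, and the call was lost when the 4 normoxia libraries were fitted alone (adjusted p = 0.052). Fbl, fibrillarin, the methyltransferase of the particle, was not called, at -0.32 (adjusted p = 0.071) and -0.06 (adjusted p = 0.76), but was called in normoxia when those 4 libraries were fitted alone (adjusted p = 0.036). Pseudogenes named after their parent gene are annotated for Fbl (1), Npm3 (1) and Mrto4 (2). How reads shared with them were counted is not given in the sources used here, so the values of these 3 genes are uncertain. Copies annotated under other names were not searched, so the same doubt may hold for other genes described here.

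Among the 4 proteins of box H/ACA snoRNPs, which guide pseudouridylation, 3 were lower in each condition. Gar1 had 65.3 and 68.0 CPM in WT normoxia, 26.8 and 38.6 in FIH-KO normoxia, 64.8 and 58.0 in WT hypoxia, and 32.2 and 31.2 in FIH-KO hypoxia. Its FIH-KO and WT levels were well apart, with log2 fold changes of -1.03 (SE 0.16, adjusted p = 0.00065) and -0.95 (SE 0.16, adjusted p = 0.0011). Gar1 lies on chromosome 3, where the median over all tested genes was -0.36 in normoxia and -0.41 in hypoxia. Dkc1, dyskerin, the pseudouridine synthase, had 203 and 183 CPM in WT normoxia, 89.8 and 122 in FIH-KO normoxia, 199 and 186 in WT hypoxia, and 119 and 114 in FIH-KO hypoxia. Its libraries did not overlap between genotypes, and it changed by -0.86 (SE 0.14, adjusted p = 0.00085) and -0.72 (SE 0.14, adjusted p = 0.0024). Nhp2 was lower by -0.70 (adjusted p = 0.015) and -0.60 (adjusted p = 0.032), and its value in hypoxia was -0.92 without FIH-KO replicate 1 and -0.31 without replicate 2. Its call in hypoxia was lost when the 4 hypoxia libraries were fitted alone (adjusted p = 0.078). Nop10, the smallest protein of the particle, was not called, at -0.36 (adjusted p = 0.079) in normoxia and 0.13 (adjusted p = 0.55) in hypoxia. In normoxia its value was -0.20 without FIH-KO replicate 1 and -0.61 without replicate 2.

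The small subunit processome, which folds and cuts the 5′ part of the rRNA precursor, had 7 of 11 genes lower in normoxia and 8 of 11 in hypoxia. Utp4 had 188 and 178 CPM in WT normoxia, 76.7 and 105 in FIH-KO normoxia, 220 and 213 in WT hypoxia, and 119 and 98.2 in FIH-KO hypoxia. The genotypes were separate, with log2 fold changes of -1.01 (SE 0.15, adjusted p = 0.00046) and -0.999 (SE 0.15, adjusted p = 0.00053). Heatr1, Wdr43, Wdr75, Ddx10, Nop14 and Noc4l were also lower in both conditions, between -0.44 and -0.73 on the log2 scale. Single libraries moved 3 of them by over 1.5 times. In normoxia Nop14 was -0.25 and Wdr43 -0.29 without FIH-KO replicate 1, and they were -0.72 and -0.83 without replicate 2. In hypoxia Wdr43 was -0.31 without WT replicate 1 and Noc4l -0.32 without FIH-KO replicate 2. When the 4 libraries of a condition were fitted alone, the calls of Nop14 in normoxia (adjusted p = 0.054) and Noc4l in hypoxia (adjusted p = 0.067) were lost. Rrp9, a U3 snoRNP protein, was called in hypoxia (-0.70, adjusted p = 0.038) and not in normoxia (-0.53, adjusted p = 0.10), and the difference between the conditions was not called. Its value in hypoxia was -1.12 without FIH-KO replicate 1 and -0.35 without replicate 2. In normoxia Rrp9 was -0.30 without FIH-KO replicate 1 and -0.88 without replicate 2. With the 4 libraries of each condition fitted alone it was called in normoxia (adjusted p = 0.038) and not in hypoxia (adjusted p = 0.065), and without a filter beyond 1 read it was called in normoxia as well (adjusted p = 0.0030). Tbl3, Utp20 and Pwp2 were called in neither. Pwp2 was the one gene of the 46 above 0 in normoxia, at 0.06, and was 0.26 in hypoxia (adjusted p = 0.24). Of the 3 later small subunit factors, Nob1, the endonuclease that makes the 3′ end of 18S rRNA, was lower in both conditions. It had 105 and 99.5 CPM in WT normoxia, 57.9 and 65.2 in FIH-KO normoxia, 127 and 101 in WT hypoxia, and 78.7 and 65.0 in FIH-KO hypoxia. No library of one genotype reached the other, and the changes were -0.73 (SE 0.14, adjusted p = 0.0025) and -0.66 (SE 0.14, adjusted p = 0.0041). Rrp12, an export factor, was lower in normoxia (-0.84, adjusted p = 0.025) and not called in hypoxia (-0.69, adjusted p = 0.057). In normoxia it was -0.44 without FIH-KO replicate 1 and -1.45 without replicate 2, and DESeq2 did not call it (adjusted p = 0.088). In hypoxia it was called with the 4 hypoxia libraries fitted alone (adjusted p = 0.027), with a replicate block (adjusted p = 0.04986) and without a filter beyond 1 read (adjusted p = 0.00011). Without WT hypoxia replicate 1 its hypoxia value was -0.42. Rrp12 also lies on chromosome 19. Bysl was called in neither.

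Of 11 large subunit assembly genes, 8 were lower in normoxia and 6 in hypoxia. Nop2, a methyltransferase of 28S rRNA, had 217 and 195 CPM in WT normoxia, 84.0 and 128 in FIH-KO normoxia, 282 and 213 in WT hypoxia, and 143 and 114 in FIH-KO hypoxia. Genotypes were apart in each oxygen condition and over all 8 libraries, at -0.96 (SE 0.19, adjusted p = 0.0033) and -0.95 (SE 0.19, adjusted p = 0.0034). Nop16 had 87.0 and 87.1 CPM in WT normoxia, 38.4 and 54.7 in FIH-KO normoxia, 94.9 and 80.2 in WT hypoxia, and 62.4 and 43.7 in FIH-KO hypoxia. It too showed no overlap, with changes of -0.90 (SE 0.19, adjusted p = 0.0038) and -0.72 (SE 0.19, adjusted p = 0.012). Nip7, Gnl3 (nucleostemin), Ddx18 and Ddx56 were lower in both conditions, and Mrto4 and Rrs1 in normoxia alone. In normoxia Rrs1 was -0.64, and -0.42 or -0.97 without FIH-KO replicate 1 or 2. Noc2l, Noc3l (also on chromosome 19) and Ebna1bp2 were called in neither, although Ebna1bp2 was called in normoxia without a filter beyond 1 read (adjusted p = 0.042). In the PeBoW complex, which is needed for 5.8S and 28S rRNA maturation, Bop1 and Wdr12 were lower in both conditions (Wdr12 -0.60 and -0.61), and Pes1 was lower in normoxia (-0.32, adjusted p = 0.047) and at -0.04 in hypoxia (adjusted p = 0.84). The Pes1 call was lost with a replicate block (adjusted p = 0.052) and without a filter beyond 1 read (adjusted p = 0.095). Bop1 was -0.57 in normoxia, and -0.37 or -0.85 without FIH-KO replicate 1 or 2. In hypoxia it was -0.53, and -0.31 without FIH-KO replicate 2 or -0.33 without WT replicate 1. That call was lost with the 4 hypoxia libraries fitted alone (adjusted p = 0.070) and with at least 10 counts in every library (adjusted p = 0.052). Ddx21, a nucleolar RNA helicase, was called in neither, at -0.32 and -0.14. In normoxia its value was -0.08 without FIH-KO replicate 1 and -0.66 without replicate 2.

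Of 6 genes of RNA polymerase I and its cofactors, 3 were lower in normoxia and 2 in hypoxia, against 13% and 13.9% of all tested genes. Values were below 0 for 6 and 5 of them, against 6991 and 7353 of all 13933 tested genes. Polr1a, the largest subunit, had 374 and 380 CPM in WT normoxia, 214 and 251 in FIH-KO normoxia, 409 and 353 in WT hypoxia, and 253 and 232 in FIH-KO hypoxia. All FIH-KO libraries were below all WT libraries, and the log2 fold change was -0.70 (SE 0.12, adjusted p = 0.0014) in normoxia and -0.65 (SE 0.12, adjusted p = 0.0021) in hypoxia. Polr1b, the second largest subunit, was lower by -0.61 (adjusted p = 0.022) and -0.64 (adjusted p = 0.018), with -0.38 and -0.95 in normoxia without FIH-KO replicate 1 or 2, and Polr1e was lower in normoxia alone (-0.58, adjusted p = 0.019). Polr1c, which RNA polymerase III shares, and the initiation factors Rrn3 and Ubtf were called in neither condition. Rrn3 was at -0.06 and -0.18, and Ubtf at -0.30 and 0.0046.

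**Figure D3:**
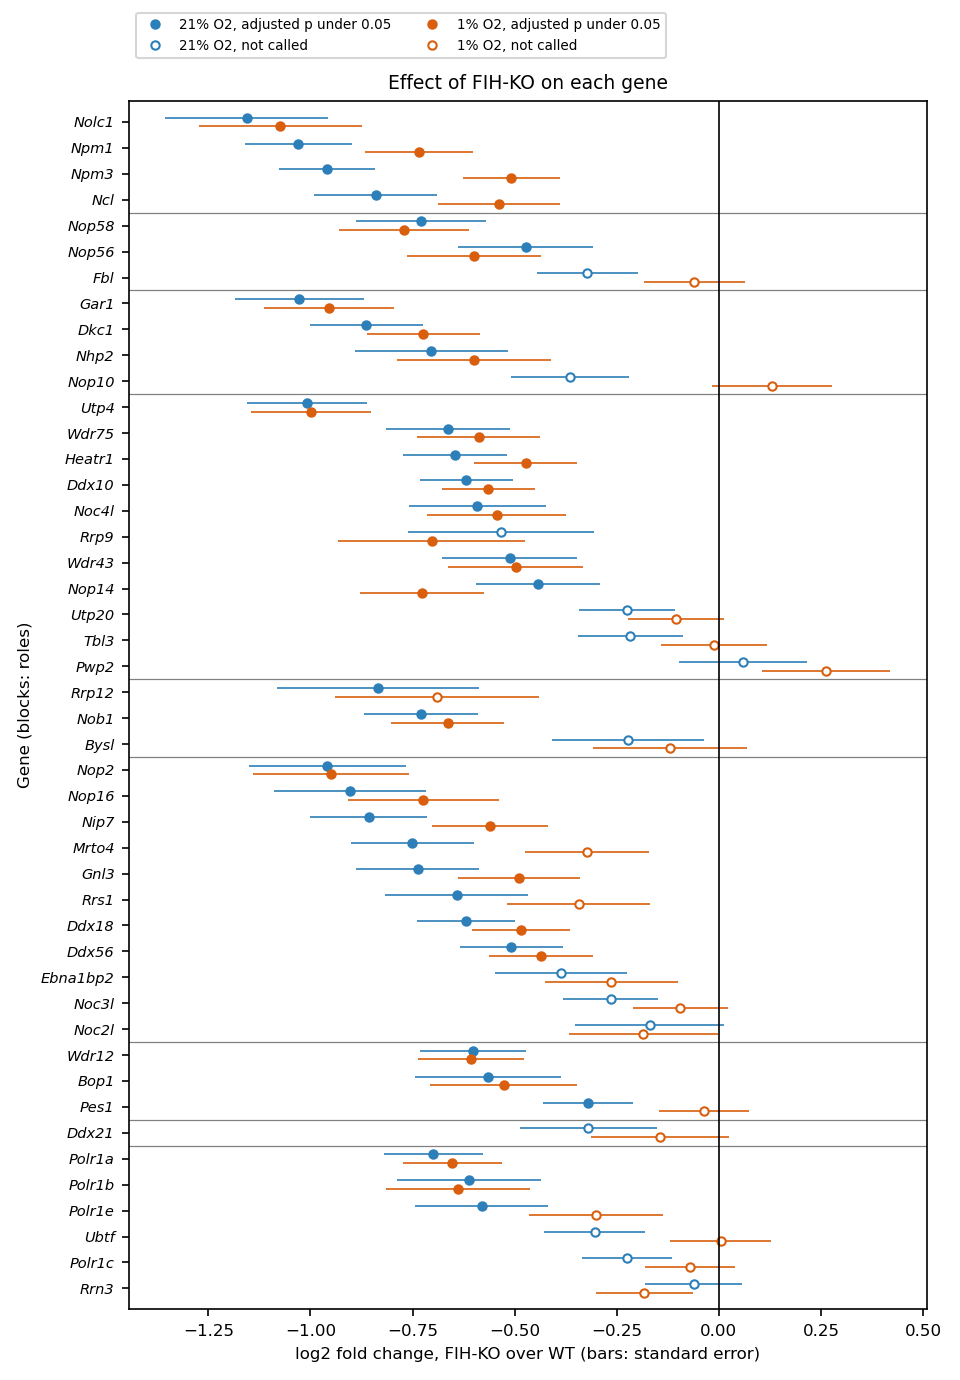
log2 fold change of FIH-KO over WT for each gene, in blocks by role, at 21% O2 (blue) and 1% O2 (orange). Bars are standard errors and filled points have an adjusted p under 0.05. All filled points lie left of 0, from -0.32 (Pes1, 21% O2) to -1.16 (Nolc1, 21% O2).

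Fewer of the 46 genes were called for low oxygen than for genotype. In WT cells, 6 were lower and 1 higher in hypoxia than in normoxia, while 15.5% of all tested genes were called lower and 16.9% higher, and the median log2 fold change was -0.031. Npm3 fell most, from 115 and 108 CPM in WT normoxia to 59.1 and 61.1 in WT hypoxia, and the libraries did not overlap (-0.89, SE 0.12, adjusted p = 0.00021). Nop10 went from 51.0 and 54.7 to 33.4 and 30.9 CPM (-0.72, SE 0.15, adjusted p = 0.0031). Nop14, a processome gene, was the one that rose, from 97.7 and 86.2 to 154 and 138 CPM (0.67, SE 0.15, adjusted p = 0.0058). Bysl went from 77.8 and 74.0 to 56.8 and 46.1 CPM (-0.56, SE 0.19, adjusted p = 0.038), and Fbl, Mrto4 and Tbl3 were also lower. In FIH-KO cells Npm3 was lower in hypoxia (-0.44, adjusted p = 0.026) and Nip7 higher (0.46, adjusted p = 0.047), against 8% and 8.84% of all tested genes, with a median of 0.072. Without FIH-KO normoxia replicate 2 the Npm3 value was -0.29, and without replicate 1 the Nip7 value was 0.305, and neither was then called. With single libraries left out, between 3 and 9 genes were called for hypoxia in WT and between 0 and 7 in FIH-KO cells. When each comparison was fitted on its own 4 libraries, 16 were called in WT (10 of them lower) and 0 in FIH-KO cells. Over all genes those fits called 5660 and 1289, against 4509 and 2345 when all libraries were fitted together. The same libraries did respond to low oxygen, since Vegfa rose by 3.08, Ndrg1 by 3.97 and Slc2a1 by 2.57 on the log2 scale in WT cells. In FIH-KO cells these 3 genes rose by 1.97, 3.41 and 2.73. Of 8 hypoxia genes checked, 8 were called higher in WT and 7 in FIH-KO cells. Car9, at 0.26 and 0.22 CPM in FIH-KO normoxia and hypoxia, was not called there (-0.22). The comparisons of oxygen share libraries with those of genotype. The difference in the FIH-KO effect between hypoxia and normoxia was called for 0 of the 46 genes and 0 of all 13933 by edgeR. At an unadjusted p under 0.05 it held 2 of the 46 and 925 of all, and DESeq2 called 0 of the 46 and 40 of all. The count of 2 rose to 20 of the 46 (1063 of all) without FIH-KO normoxia replicate 2, with 0 called after adjustment. The largest was 0.49 (Nop10), and the smallest adjusted p among the 46 was 0.63.

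**Figure D4:**
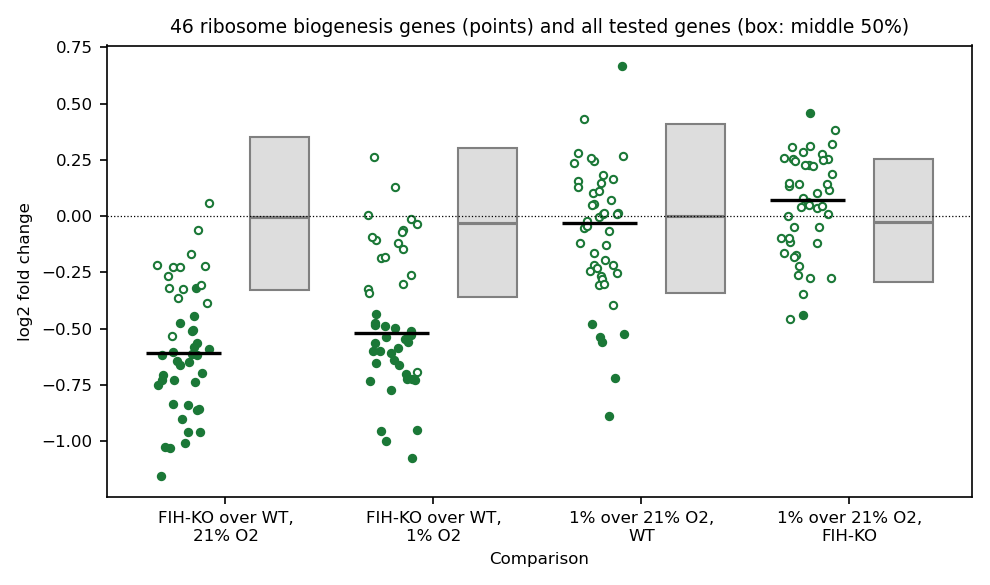
log2 fold changes of the 46 genes (points, filled where the adjusted p is under 0.05, black line at their median) in 4 comparisons, with a grey box for the middle 50% of all tested genes and a line at their median. The points have medians of -0.61 and -0.52 for FIH-KO over WT and of -0.031 and 0.072 for 1% over 21% O2.

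A second list of 108 other ribosome biogenesis genes was read in the same way, and 105 of them were matched by symbol and tested. In normoxia 45 (42.9%, against 13% of all tested genes) were lower in FIH-KO cells and 0 higher, with a median of -0.36. In hypoxia 43 (41%, against 13.9%) were lower and 2 higher, with a median of -0.31. The small subunit factors of this list had 24 of 45 lower in normoxia and 21 in hypoxia, and the large subunit factors 19 of 45 in each. The RNA polymerase I factors, with 2 of 15 lower in normoxia (13.3%) and 3 of 15 in hypoxia (20%), were near the share of all tested genes. Without 1 library these calls fell to as few as 16 (FIH-KO normoxia replicate 1) and 14 (WT hypoxia replicate 1). In both conditions 35 of the 105 were lower, against 8.68% of all tested genes. Wdr3, a processome protein, had 137 and 122 CPM in WT normoxia, 49.5 and 69.6 in FIH-KO normoxia, 179 and 171 in WT hypoxia, and 83.6 and 74.5 in FIH-KO hypoxia. It led the list without overlap, at -1.12 (SE 0.15, adjusted p = 0.00027) and -1.15 (SE 0.15, adjusted p = 0.00022), followed by Lyar, Rcl1, Rpf1 and Wdr74. Rrp1 (0.38, adjusted p = 0.022) and Polr1h (0.45, adjusted p = 0.026) were the 2 higher in hypoxia, and neither was called without WT hypoxia replicate 1 (0.45 and 0.43).

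Myc was lower in FIH-KO cells in both oxygen conditions and higher in hypoxia in both genotypes. It had 252 and 204 CPM in WT normoxia, 92.9 and 129 in FIH-KO normoxia, 1169 and 750 in WT hypoxia, and 467 and 228 in FIH-KO hypoxia. FIH-KO hypoxia thus overlapped WT normoxia, while the genotypes were separate within each oxygen condition. The log2 fold change of FIH-KO over WT was -1.04 (SE 0.29, adjusted p = 0.020) in normoxia and -1.47 (SE 0.29, adjusted p = 0.0032) in hypoxia, and that of hypoxia over normoxia was 2.07 (SE 0.30, adjusted p = 0.00038) in WT and 1.65 (SE 0.30, adjusted p = 0.0032) in FIH-KO cells. The latter was 1.07 without FIH-KO hypoxia replicate 1, and the genotype difference in normoxia was not called by DESeq2 (adjusted p = 0.075) or without WT normoxia replicate 1 (-0.91) or FIH-KO normoxia replicate 1 (-0.85). Mxd4, a repressor that competes with Myc for its partner Max, was higher in FIH-KO cells, by 2.10 (adjusted p = 8.2e-05) in normoxia and 1.48 (adjusted p = 0.00082) in hypoxia. Mxi1, of the same family and on chromosome 19, was lower in FIH-KO hypoxia (-0.63, adjusted p = 0.0070) and at -0.21 in normoxia (adjusted p = 0.32), and Mxd1 was higher in normoxia (0.90, adjusted p = 0.019) and at 0.13 in hypoxia (adjusted p = 0.73). Max, Mxd3, Mnt, Mga and Mlx were called in neither condition. Of 8 proliferation genes, 3 (Mcm2, Mcm3 and Ccnb1) were lower in FIH-KO cells in normoxia, against 13% of all tested genes. In hypoxia 2 (Mcm2 and Mcm3) were lower, against 13.9%, and 0 of the 8 were called higher in either condition. Values were below 0 for 7 of the 8 in normoxia (median -0.43) and for 4 in hypoxia (median 0.015). The part of the proliferation genes, and that of Myc, in the levels of the 46 genes was not tested.

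Since Myc with Max binds the E-box, written CACGTG and the same on both strands, the sequence around the start of each canonical transcript was searched (GRCm39, GENCODE M39). Within 1000 bases on either side, 31 of the 46 genes (67.4%) held at least 1, against 33.4% of 11622 tested protein-coding genes and 49.5% of the second list. After that count was seen the window was divided, and 63.0% held one downstream of the start against 18.4%, and 13% upstream against 18.3%. Within 250 bases upstream the share was 8.7% against 7.91%. Of genes with an E-box there, Nop2, Nop56 and Rrn3 have an annotated exon on the same strand overlapping these bases, and Ebna1bp2 does not. Upstream thus refers to the canonical start only. The hypoxia response element core, searched in the same 250 bases as ACGTG or GCGTG on either strand and overlapping the E-box, was in 60.9% against 54.1%. A match is a string of letters and not a bound site. The 31 genes with an E-box had a median FIH-KO effect of -0.61 in normoxia and -0.51 in hypoxia, and the 15 without one -0.58 and -0.53. Of the 10 genes given in full for the size of their decrease in both conditions, Nolc1, Nop16, Nob1 and Polr1a held no E-box in these windows, and the one in Gar1 lay in an untranslated exon. One site outside untranslated exons is given for each of the other 5, and one for Ncl, which held the most sites, with the E-box in capitals and 10 bases on either side, on the strand of the gene.
Npm1, intron 1: cccctaggagCACGTGgttgccacgt
Ncl, intron 1: gtggtgactcCACGTGgtggggctgg
Dkc1, intron 1: ttgccacagcCACGTGgagaacccga
Nop58, intron 1: ttcaggtgaaCACGTGgcttctccga
Nop2, upstream: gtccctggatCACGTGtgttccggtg
Utp4, upstream: acgttcccatCACGTGgcaggattcc
The Npm1 site is at chr11:33112383-33112388 on the minus strand, 851 bases after the start, and another follows at 862. The Ncl site is at chr1:86286349-86286354 on the minus strand, 855 bases after the start, and is the last of 5 in intron 1. The Dkc1 site is at chrX:74140240-74140245 and the Nop58 site at chr1:59724542-59724547, both on the plus strand, 781 and 429 bases after the start. The Nop2 site is at chr6:125108786-125108791 and the Utp4 site at chr8:107618925-107618930, both on the plus strand, at positions -34 and -889 from the start.

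**Figure D5:**
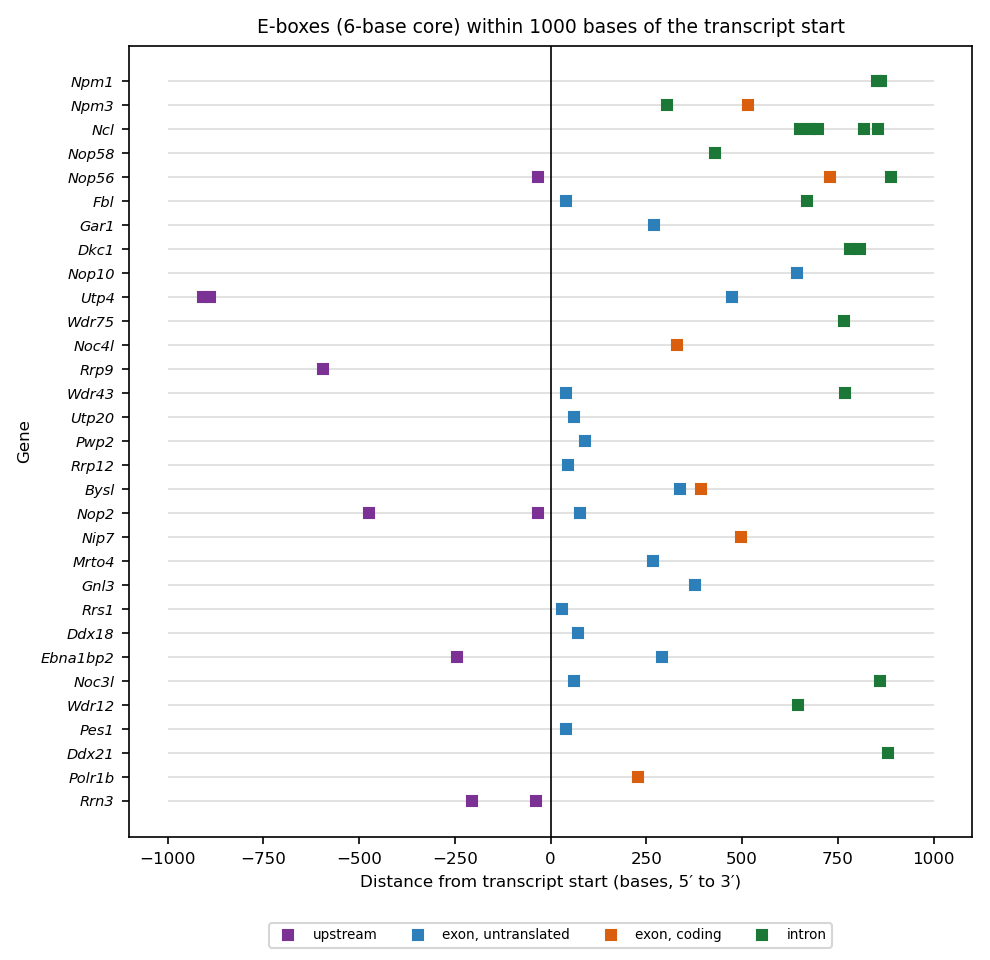
E-boxes (squares) within 1000 bases of the transcript start in the 31 genes that hold one, by distance from the start in bases and colored by where they lie in the canonical transcript. Introns hold 18 sites, untranslated exons 17, upstream sequence 9 and coding exons 6.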

How the data were processed

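The authors converted reads with bcl2fastq, used STAR for alignment to GRCm39, and obtained gene counts from HTSeq. The submitters' processing notes also name GRCm38 and DESeq2. The deposited values are raw counts without normalization. The annotation release is not given in the sources used here. Groups came from the sample labels. The test was the quasi-likelihood F test of edgeR 4.0.16 in R 4.3.3 (genes kept by filterByExpr, TMM factors, all 8 libraries fitted together with 4 group means, Benjamini-Hochberg adjustment over 13933 genes, threshold 0.05), after tests on simulated data. The standard error of a log2 fold change was its size divided by the square root of F. Positions came from GENCODE M39, which held 97.97% of the identifiers.

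The 46 genes and all lists were chosen with earlier results of these data known. Full values were given for 10 genes called in both oxygen conditions, ranked by the change in the condition where it was smaller. They were also given for the 4 genes with the largest change called with oxygen in WT cells. CPM values of Ncl, Wdr3, Hif1an and Myc were printed as well. Other genes were named by role. Gene length was first the union of all exons. The canonical transcript was added after single exon-union lengths had been seen, and both are reported. Alternatives were DESeq2 1.42.0, RLE and upper-quartile factors, other filters, only the 4 libraries of a comparison, a replicate block and each library left out. Tables and plots used Python 3.11.15, pandas 2.3.3 and matplotlib 3.10.9.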

Additional observations from a re-analysis of the deposited data

How the results depend on the processing

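With 2 libraries a group, single libraries decided many calls. With each library left out in turn (the lone library of its group was assumed to vary like the others), the genes called for FIH-KO against WT ranged from 18 (without WT normoxia replicate 1) to 40 (without FIH-KO normoxia replicate 2) in normoxia and from 8 (without WT hypoxia replicate 1) to 29 in hypoxia, against 32 and 28 with all libraries. Without the other libraries that moved these counts by over 1.5 times, they were 19 (FIH-KO normoxia replicate 1) and 21 (WT normoxia replicate 2) in normoxia, and 14 (FIH-KO hypoxia replicate 2) and 18 (WT hypoxia replicate 2) in hypoxia. Without each library that lowered these counts by over 1.5 times, calls over all tested genes fell as well. That fall was a smaller share in hypoxia without WT replicate 1 or FIH-KO replicate 2, and a larger share in the other fits. Values of 7 called genes in normoxia and 5 in hypoxia moved by over 1.5 times with a library left out. The called genes stayed below 0 under every alternative run, but 18 of 32 and 7 of 28 stayed called with every library left out in turn. Under the other alternatives 28 of 32 and 24 of 28 stayed called, and the calls lost were those of Nop14, Nop56, Pes1 and Rrp12 in normoxia and Bop1, Nhp2, Noc4l and Rrp9 in hypoxia. Dkc1, Gar1, Npm1, Nolc1, Utp4, Ddx10 and Polr1a were called lower in both conditions under every alternative. The median log2 fold change ranged from -0.84 to -0.42 in normoxia, -0.59 to -0.39 in hypoxia, -0.14 to 0.024 for hypoxia in WT, -0.075 to 0.30 for hypoxia in FIH-KO, and -0.0013 to 0.40 for the difference in the FIH-KO effect. Genes called for hypoxia ranged from 3 to 9 in WT and from 0 to 7 in FIH-KO, and calls in the second list between 16 and 56 (normoxia) and between 14 and 43 (hypoxia).

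With only the 4 libraries of a comparison, genes called for hypoxia were 16 in WT and 0 in FIH-KO, and without a filter beyond 1 read they were 4 in FIH-KO. Over all genes the same fits called 5660, 1289 and 2821. DESeq2 called 31 and 28 genes for FIH-KO against WT. Outside chromosomes 3 and 19 the medians were -0.59 and -0.50. The canonical transcript length gave a median of 51.2 RPKM in WT hypoxia and 32.4 in FIH-KO hypoxia, against 29.7 and 19.6 with the exon union. Signs of genes near 0 turned. In hypoxia Pes1 was 0.0012 without a filter, and Tbl3 was 0.0050 with at least 10 counts in every library, 0.026 without a filter, 0.017 with only 4 libraries and 0.0021 with upper-quartile factors. With a library left out, the hypoxia values ranged from -0.26 to 0.074 (Bysl), -0.28 to 0.048 (Ddx21), -0.18 to 0.091 (Fbl), -0.18 to 0.039 (Noc3l), -0.10 to 0.072 (Pes1), -0.065 to 0.082 (Tbl3) and -0.096 to 0.15 (Ubtf), and the normoxia values from -0.64 to 0.062 (Bysl), -0.58 to 0.12 (Noc2l), -0.22 to 0.25 (Pwp2) and -0.20 to 0.023 (Rrn3). The cause was not tested.

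Replicate numbers were not treated as pairs in the main fit. Deviations of same-numbered libraries correlated between -0.064 and 0.21 across pairs of groups, the highest between WT hypoxia and FIH-KO hypoxia. Such correlations cannot tell whether same-numbered libraries shared a culture or a batch. A replicate block gave 31 and 29 genes for FIH-KO against WT in normoxia and hypoxia, 7 and 2 for hypoxia in WT and FIH-KO, and 0 for the difference.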

Other observations

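Of the 46 genes, 6 hold annotated snoRNA genes on the same strand, 19 in all: Nop56 holds 5, Nop58 4, Ncl, Gnl3 and Wdr43 3 each, and Dkc1 1. All 6 host genes were lower in FIH-KO cells in both oxygen conditions, as were 27 of the 46 genes and 8.68% of all tested genes. Levels of the snoRNAs themselves were not analysed here, since the mRNA libraries were not made to capture them.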
